A study of Mus musculus with 9 samples.

Results

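The cyclin-dependent kinase (Cdk) inhibitors were followed as a family of 7 genes, Cdkn1a, Cdkn1b, Cdkn1c, Cdkn2a, Cdkn2b, Cdkn2c and Cdkn2d, which were found by symbol in both deposited tables. They are 7 of the 36442 genes of the epidermal table and 7 of the 24016 symbols of the regulatory T cell (Treg) table, where the transcript with the highest mean stood for each gene. The series holds 9 mouse RNA-seq libraries of cells purified by flow cytometry. Keratinocytes of adult epidermis came from Mi2 and WT mice, with 2 libraries each, and "KO" stands in the column names of the Mi2 group. Tregs of skin-draining lymph nodes came from 3 groups, namely TSLPR- Tregs of Mi2 mice with 1 library, TSLPR WT Tregs of Mi2 mice with 2 libraries and control (Ctl) Tregs with 2 libraries. Lymph nodes are the source in the sample labels, whereas the Treg columns are named for skin. The columns of Ctl Tregs are headed WT, and those of TSLPR WT Tregs of Mi2 mice are headed Mi2KO. The column taken for the TSLPR- library is named TMDKO, an abbreviation that the labels do not explain. It was matched as the Treg column without a replicate number, as in the label of that library, and every TSLPR- value rests on that match. Chd4 encodes Mi-2β, an ATPase that remodels chromatin, and Crlf2 encodes TSLPR, through which cells sense the cytokine TSLP. The labels used here state neither strain, age in weeks and allele nor a Cre driver or how TSLPR- cells were obtained. Nor do the labels say whether replicates came from different mice, so p-values measure the spread between these libraries only.

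Cdk inhibitors hold back the kinases that drive the cell cycle. The INK4 proteins p16 (Cdkn2a), p15 (Cdkn2b), p18 (Cdkn2c) and p19 (Cdkn2d) bind Cdk4 and Cdk6 and keep them from D-type cyclins, while the CIP/KIP proteins p21 (Cdkn1a), p27 (Cdkn1b) and p57 (Cdkn1c) bind assembled cyclin and Cdk complexes, above all those of Cdk2. In keratinocytes p21 and p27 are known for their part in leaving the cell cycle during differentiation, and in T cells p27 is high at rest and is degraded when the cells divide.

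The epidermal libraries held between 5682391 and 8913804 reads over genes, and the Treg libraries between 21849381 and 32238992 over transcripts. Chd4 had 734 and 1207 normalized reads in Mi2 keratinocytes, against 1607 and 1942 in WT keratinocytes (log2 change -0.91, adjusted p = 0.0456). Crlf2 had 51.5 normalized reads in TSLPR- Tregs, 816 and 715 in TSLPR WT Tregs of Mi2 mice, and 395 and 742 in Ctl Tregs (TSLPR- over TSLPR WT, log2 change -3.86, adjusted p = 0.00014). All 6 keratinocyte markers were above 0 in every epidermal library, and all 6 Treg markers in every Treg library, where 4 or 5 of the 6 keratinocyte markers were at 0. Of the keratinocyte markers, Krt15 (log2 change -2.88) and Krt1 (-1.67) were called lower in Mi2 keratinocytes. The markers of other skin cells summed to 166 and 134 normalized reads in Mi2, against 269 and 381 in WT keratinocytes, and none of the 4 tested was called, with a median log2 change of -2.02. The Treg markers summed to 340 and 425 in Mi2, against 887 and 1131 in WT keratinocytes, with Ikzf2 called lower of 2 tested. The markers of other lymph node cells summed to 69.0 and 102 in Mi2, against 264 and 896 in WT keratinocytes, with the haemoglobin gene Hbb-b1 called lower of 2 tested. The part of these marker differences in the inhibitor results was not tested. Mitochondrially encoded genes took 29.7% and 15.5% of the normalized reads in Mi2 keratinocytes, against 13.8% and 12.9% in WT keratinocytes, so Mi2 replicate 1 stands apart in this share.

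In the epidermis, Cdkn1a and Cdkn2d were higher and Cdkn1b was lower in Mi2 than in WT keratinocytes, while Cdkn2b, Cdkn2c and Cdkn1c were not called and Cdkn2a was near 0. This comparison asks what changes in keratinocytes of Mi2 mice. Of the 7 genes, 6 reached the minimum mean of 10 normalized reads and were tested, and 2 were called higher and 1 lower at a Benjamini-Hochberg adjusted p under 0.05. Among all 14461 genes tested, 28.2% were called, 15.1% higher and 13.1% lower. Groups did not overlap for 2 of the inhibitor genes with Mi2 higher and for 1 with Mi2 lower, against 34.9% and 35.8% of all genes tested, and 2 of 6 changes were below 0, against 51.3%. The median log2 change of the 6 inhibitor genes was 0.23, against -0.03 over all genes tested. Changes here and below are fitted differences on the log2(normalized reads + 1) scale, Mi2 over WT, from limma, a scale that understates the change of low genes. Scaling mattered, because with mitochondrial genes left out the median of all genes moved to -0.27 and 1531 genes were called higher and 2749 lower, against 2185 and 1900 as deposited. With the 50 most abundant genes left out of the scaling the median was -0.16, with 1740 called higher and 2101 lower.

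**Figure D1:**
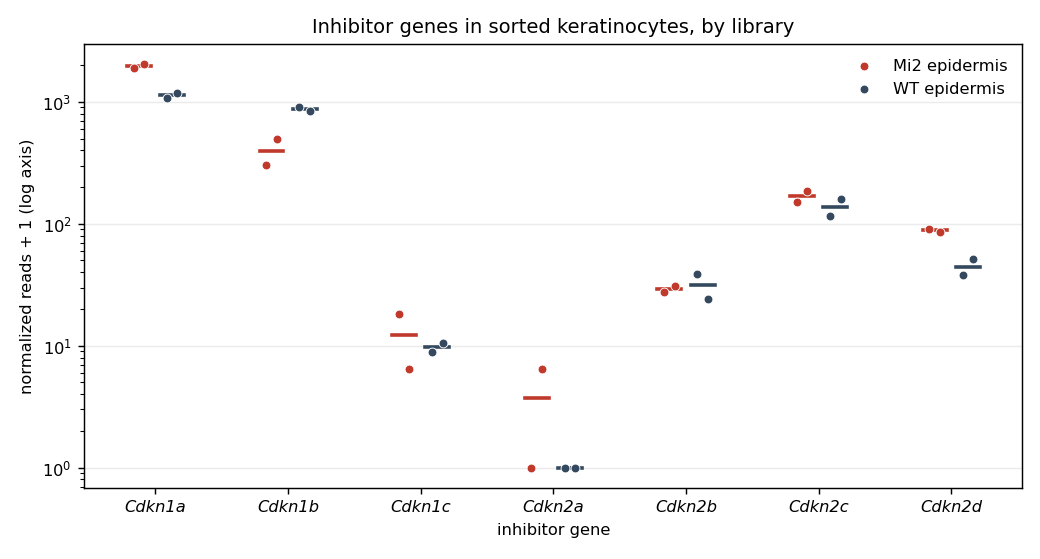
Normalized reads + 1 on a log axis for the 7 inhibitor genes in 2 Mi2 and 2 WT keratinocyte libraries, where points are libraries and bars are group means. The Mi2 points lie above the WT points for Cdkn1a and Cdkn2d and below them for Cdkn1b, and the groups overlap for the other genes.

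Cdkn1a, which encodes p21 and is a classical target of p53, had 1908 and 2037 normalized reads in Mi2 keratinocytes, against 1070 and 1185 in WT keratinocytes. Both Mi2 libraries lie above both WT libraries. The mean was 1972 ± 91.0 in Mi2 and 1128 ± 81.8 in WT (SD, n = 2 each), a log2 change of 0.81 with a standard error of 0.19 (1.75-fold, 95% interval 0.36 to 1.25, adjusted p = 0.0207). The call ended without WT replicate 1 (log2 change 0.73, adjusted p = 0.175) and without WT replicate 2 (0.88, adjusted p = 0.101), and held without either Mi2 library (adjusted p = 0.0263 and 0.0274). It also ended when the mitochondrial genes were left out (log2 change 0.57, adjusted p = 0.0702) and in limma without a mean-variance trend (adjusted p = 0.0629).

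Cdkn1b, which encodes p27, went the other way. It had 301 and 490 normalized reads in Mi2 keratinocytes, against 902 and 836 in WT keratinocytes, and the groups do not overlap. The means were 396 ± 134 in Mi2 and 869 ± 47.0 in WT (SD, n = 2 each), a log2 change of -1.17 with a standard error of 0.26 (95% interval -1.79 to -0.56, adjusted p = 0.0181). Without the mitochondrial genes the log2 change was -1.41 (adjusted p = 0.0131). Its size depended on the Mi2 libraries, at -0.82 without Mi2 replicate 1 and -1.52 without Mi2 replicate 2. The adjusted p was 0.115 without WT replicate 1, 0.0757 without WT replicate 2 and 0.0581 in limma without a trend.

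The ratio of Cdkn1a to Cdkn1b reads within a library does not depend on how libraries are scaled. It was 6.33 and 4.15 in the Mi2 keratinocyte libraries, against 1.19 and 1.42 in the WT libraries. Both Mi2 ratios are above both WT ratios, by 1.98 on the log2 scale between group means. This separation follows from the levels of the 2 genes given above and is no further evidence. An exact two-sided permutation test of 2 against 2 libraries gave p = 0.333, the smallest that this design allows, which only restates the lack of overlap. Cdkn1a held 76.5% and 71.8% of the reads of the 7 inhibitor genes in Mi2 keratinocytes, against 49.3% and 52.4% in WT keratinocytes. The corresponding share of Cdkn1b was 12.1% and 17.3% in Mi2, against 41.6% and 36.9% in WT.

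The stretches upstream of these genes are shown because Cdkn1a and Cdkn1b changed in opposite directions and Cdkn1a is the textbook p53 target. The sequences are the 250 bases before a RefSeq start on GRCm38.p6, 5′ to 3′ on the gene's strand, for Cdkn1a start 1 at chr17:29090729-29090978 (plus strand) and Cdkn1b at chr6:134920151-134920400 (plus strand). Capitals mark a match to the pattern searched for the p53 response element in Cdkn1a and the GC box GGGCGG in Cdkn1b.
Cdkn1a start 1: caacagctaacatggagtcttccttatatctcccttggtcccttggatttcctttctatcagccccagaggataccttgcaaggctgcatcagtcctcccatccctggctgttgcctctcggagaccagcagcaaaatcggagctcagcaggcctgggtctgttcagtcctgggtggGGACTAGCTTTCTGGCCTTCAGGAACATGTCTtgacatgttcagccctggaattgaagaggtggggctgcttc
Cdkn1b: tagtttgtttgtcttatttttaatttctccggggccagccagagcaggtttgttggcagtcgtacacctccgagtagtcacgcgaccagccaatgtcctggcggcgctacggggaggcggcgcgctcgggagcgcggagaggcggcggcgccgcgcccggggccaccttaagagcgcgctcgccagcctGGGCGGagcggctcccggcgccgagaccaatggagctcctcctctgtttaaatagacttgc
In Cdkn1a the match consists of paired half-sites of 10 bases with 12 bases between them, from 73 to 42 bases before the start. Half-sites were searched as RRRCWWGYYY without mismatch, where R is A or G, W is A or T and Y is C or T. The 10 bases directly after the capitals, tgacatgttc, differ from this pattern in the first base only and were not marked. The marked pairing is thus that of the search and may not be the element in use. The search allowed 0 to 13 bases between half-sites, and 21 of 32851 mouse promoters of the same length held a match, which is 0.0639%. No other start of the 6 inhibitor genes in the RefSeq table did. Cdkn1a start 2, not printed, held 2 GC boxes, against 1 before Cdkn1b, so the GC box does not set these genes apart. Its stretch has a GC content of 64.8% with 19 CpG dinucleotides, and that of Cdkn1b 64.4% with 28. A match is a description of the letters and no measure of binding.

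Among the INK4 genes of the epidermis, Cdkn2d, which encodes the p19 INK4 protein, was called higher. It had 90.2 and 84.5 normalized reads in Mi2 keratinocytes, against 36.7 and 50.1 in WT keratinocytes, and both Mi2 libraries lie above both WT libraries. The log2 change was 1.01 with a standard error of 0.31 (95% interval 0.28 to 1.73, adjusted p = 0.0482). This call was at the threshold and ended in 9 of 14 alternative settings, among them the omission of each single library, where the adjusted p was 0.0942 without Mi2 replicate 1, 0.0675 without Mi2 replicate 2, 0.328 without WT replicate 1 and 0.144 without WT replicate 2.

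Cdkn2c, which encodes p18, had 151 and 184 normalized reads in Mi2 keratinocytes, against 115 and 160 in WT keratinocytes. The groups overlap, and the log2 change of 0.30 had a 95% interval of -0.33 to 0.92 (adjusted p = 0.425). Cdkn2b, the p15 gene that TGF-β is known to induce in epithelial cells, had 26.5 and 30.0 normalized reads in Mi2 and 37.7 and 23.2 in WT keratinocytes. Its WT libraries enclose both Mi2 libraries, and the interval of the log2 change of -0.07 ran from -1.03 to 0.90 (adjusted p = 0.913). Tgfb1 itself had 1570 and 911 normalized reads in Mi2, against 343 and 359 in WT keratinocytes (log2 change 1.77, adjusted p = 0.00596). Its part in the Cdkn2b level was not tested.

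Cdkn2a, which encodes p16 and, from another first exon and reading frame, the p53 regulator p19Arf, had 0 and 4 reads in the Mi2 keratinocyte libraries and 0 reads in both WT libraries. With 3 reads as the limit that a count of 0 allows, its level was at most 3.98 normalized reads in Mi2 replicate 1, 2.98 in WT replicate 1 and 2.18 in WT replicate 2, for counting error only. Mi2 replicate 2 stood at 5.45. The gene was below the minimum mean and was not tested, and no fold is given. Cdkn1c, the imprinted p57 gene, was likewise low, with 13 and 4 reads (17.2 and 5.45 normalized reads) in Mi2, against 8 and 13 reads (7.94 and 9.44) in WT keratinocytes. Its groups overlap and the interval of the log2 change, -1.44 to 1.78, spans large changes in both directions (adjusted p = 0.869). The log2 change was 0.17, and it was 0.92 without Mi2 replicate 2 (adjusted p = 0.0918).

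Per kilobase of exon, Cdkn1a was the most abundant of the 7 transcripts in both epidermal groups, at 555 normalized reads per kilobase in Mi2 and 317 in WT keratinocytes. In Mi2 keratinocytes it was followed by Cdkn1b (87.0), Cdkn2c (62.4), Cdkn2d (55.5), Cdkn2b (20.3), Cdkn1c (5.57) and Cdkn2a (2.32), and the ranges of the 2 libraries overlapped between Cdkn1b and Cdkn2c, between Cdkn2c and Cdkn2d and between Cdkn1c and Cdkn2a. In WT keratinocytes Cdkn1b followed at 191, then Cdkn2c at 51.2, Cdkn2d at 27.6, Cdkn2b at 21.9, Cdkn1c at 4.26 and Cdkn2a at 0. Here the ranges overlapped only between Cdkn2d and Cdkn2b. Thus Cdkn1b stood apart from the INK4 genes in WT, while its range reached that of Cdkn2c in Mi2. Within each Mi2 library Cdkn1b was still above Cdkn2c, at 66.2 against 56.3 in replicate 1 and 108 against 68.5 in replicate 2.

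Of 8 G1 cyclins and kinases in the epidermis, 2 were called, against 28.2% of all genes. Ccne1 was called higher, with 122 and 91.3 normalized reads in Mi2 against 4.96 and 16.7 in WT keratinocytes, and Ccnd2 was called lower, with 1482 and 2708 in Mi2 against 8234 and 8138 in WT. Ccnd1, Cdk4, Cdk6 and Cdk2 had log2 changes of 0.04, 0.38, 0.24 and -0.53 and were not called. Of 10 S and M phase cyclins, kinases and activators, 5 were called higher and none lower, among them Ccnb2 (log2 change 2.47), Ccnb1 (2.14), Cdk1 (1.93) and Ccna2 (1.92). Of 17 proliferation genes, 9 were called higher and none lower, against 15.1% and 13.1% of all genes, with a median log2 change of 1.89. Their summed level was 16492 and 13324 normalized reads in Mi2, against 5870 and 6862 in WT keratinocytes. Their part in the change of the inhibitor genes was not tested.

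Downstream of the kinases, 4 of 13 pocket protein and E2F genes were called higher, E2f7 (2.43), E2f8 (1.83), E2f2 (1.21) and Tfdp1 (0.67), and E2f1 was called lower (-0.87). Rb1, the retinoblastoma protein that Cdk4 and Cdk6 phosphorylate, had 153 and 173 normalized reads in Mi2 and 185 and 205 in WT keratinocytes (log2 change -0.26, adjusted p = 0.409). Of 12 genes for the turnover of inhibitor proteins, 2 were called higher and 1 lower. Among all genes tested, 15.1% were called higher and 13.1% lower. Cks1b, the cofactor with which Skp2 recognises p27, had 304 and 162 normalized reads in Mi2, against 59.5 and 59.5 in WT keratinocytes (log2 change 1.88, adjusted p = 0.00916). Its relative Cks2 was called higher at 1.21, and Fbxo31, an F-box gene linked to the degradation of cyclin D1, was called lower at -1.17. Skp2 was not called (0.54, adjusted p = 0.241). Whether the E2F and turnover genes had a part in the inhibitor changes was not tested.

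Of 25 tested genes around p53, 8 were called higher and 2 lower, against 15.1% and 13.1% of all genes. The list median was 0.16. Plk3 had 147 and 150 normalized reads in Mi2, against 12.9 and 14.5 in WT keratinocytes (log2 change 3.35, adjusted p = 0.00122). The p53 targets Aen (1.41), Bax (1.32) and Zmat3 (1.19) were called higher, as were Pmaip1 (2.46), Tnfrsf10b (1.30), Gadd45a (1.21) and Ccng1 (0.83). By contrast, Sesn1 (-1.24) and Tigar, under the symbol 9630033F20Rik (-1.10), were called lower. Trp53 itself had 617 and 808 normalized reads in Mi2 and 798 and 783 in WT keratinocytes, and neither it (log2 change -0.16, adjusted p = 0.579) nor Mdm2, its negative regulator (0.33, adjusted p = 0.248), was called. Their part in the Cdkn1a change was not tested.

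Of 16 tested repressors of the Ink4 locus, 6 were called lower and 3 higher, against 13.1% and 15.1% of all genes tested. Bmi1, the Polycomb protein known for silencing Cdkn2a, had 71.6 and 68.1 normalized reads in Mi2, against 179 and 196 in WT keratinocytes (log2 change -1.41, adjusted p = 0.00776). Ezh1 (-1.46), Cbx8 (-1.72), Cbx2 (-0.82) and Kdm2b (-0.71) were among the others called lower, and Id2 (1.40), Id1 (1.13) and Suz12 (0.71) higher. Cdkn2a had at most 4 reads in any epidermal library. Among 25 known activators of inhibitor genes, 3 were called higher, Tgfb1, Tgfbr2 (1.33) and Myc (1.31, although Myc represses Cdkn1a and Cdkn2b through Zbtb17), and 5 lower, Stat5a (-1.14), Stat5b (-1.16), Foxo1 (-0.91), Foxo4 (-0.87) and Zbtb17 (-0.87). Foxo1 and Foxo4 are transcription factors known to activate Cdkn1b. Foxo1 had 322 and 414 normalized reads in Mi2 against 660 and 714 in WT keratinocytes. The part of these repressors and activators in the inhibitor levels was not tested.

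Around Cdkn1c on distal chromosome 7, 5 of 10 tested neighbours were called higher and 2 lower, against 15.1% and 13.1% of all genes tested. Cdkn1c had 17.2 normalized reads or fewer in every epidermal library. Imprinting of Cdkn1c and these neighbours in keratinocytes was not measured. H19 had 13784 and 4004 normalized reads in Mi2 keratinocytes, against 5.95 and 2.18 in WT keratinocytes, and Phlda2 had 79.6 and 25.9 in Mi2, with 0 in both WT libraries. Igf2 had 391 and 74.9 in Mi2, against 6.95 and 2.18 in WT, and Cars (log2 change 1.45) and Cd81 (0.95) were also called higher. Ascl2 was called lower, with 10.6 and 19.1 in Mi2 against 245 and 190 in WT, as was Osbpl5 (-0.65). Mtap, beside Cdkn2a and Cdkn2b, had 276 and 154 normalized reads in Mi2 and 119 and 95.1 in WT keratinocytes (log2 change 0.95, adjusted p = 0.067), and neither tested neighbour of that pair was called.

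In Tregs of Mi2 mice with the WT receptor, 5 of the 7 inhibitor genes were called higher than in Ctl Tregs and none lower. These were the INK4 genes Cdkn2a, Cdkn2b and Cdkn2c and the CIP/KIP genes Cdkn1a and Cdkn1c, with rises between 2.40-fold and 12.9-fold, while Cdkn2d and Cdkn1b were not called. The comparison asks how Tregs of Mi2 mice differ from Ctl Tregs. Of the 12206 genes tested, 27.7% were called, 14.7% higher and 13% lower. The groups did not overlap, with TSLPR WT Mi2 higher, for 6 of the 7 genes, against 32.9% of all genes tested, and 1 of 7 changes was below 0, against 50.5%. The median log2 change was 2.24 over the 7 genes and -0.01 over all genes tested. In such bulk libraries a larger share of cells with a transcript and more RNA per cell cannot be told apart. Without a filter on low values no gene of the table was called, and the adjusted p of these 5 genes lay between 0.0625 and 0.0804.

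**Figure D2:**
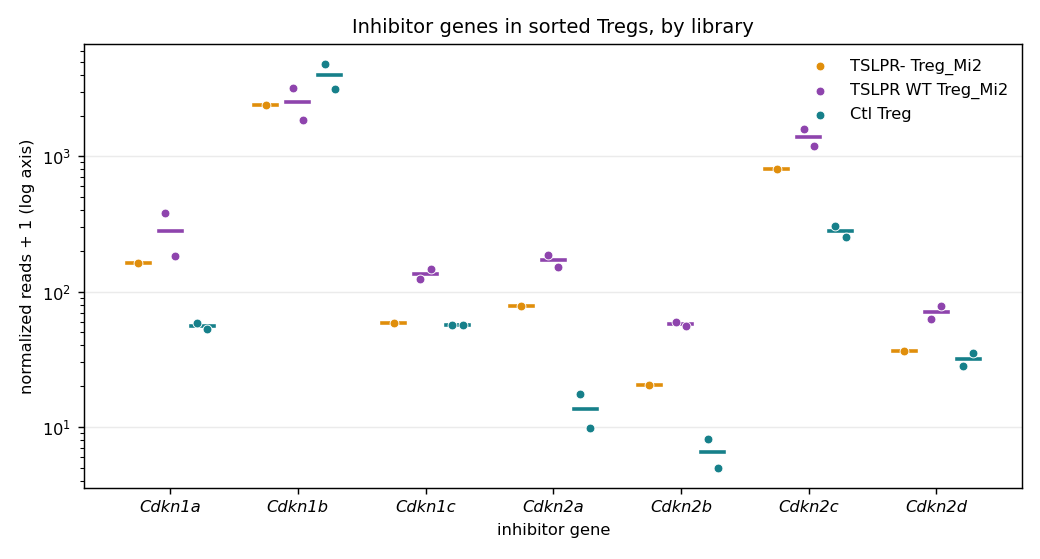
Normalized reads + 1 on a log axis for the 7 inhibitor genes in Tregs, with 1 TSLPR- library, 2 TSLPR WT libraries of Mi2 mice and 2 Ctl libraries, where points are libraries and bars are group means. TSLPR WT points lie above Ctl points for every gene but Cdkn1b, and the TSLPR- point lies between these groups or close to Ctl for 6 genes.

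Cdkn2a had 186 and 152 normalized reads in TSLPR WT Tregs of Mi2 mice, against 16.6 and 8.82 in Ctl Tregs. Every TSLPR WT library is above every Ctl library, and the reads behind the values are 211 and 153 in TSLPR WT, against 14 and 11 in Ctl. The log2 change was 3.69 with a standard error of 0.43 (12.9-fold, 95% interval 2.77 to 4.61, adjusted p = 2.98e-05). It stayed between 3.27 and 4.11 when single libraries were left out.

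Both products of the locus were listed as transcripts that share their last exons, so most of their reads are the same reads. The Arf transcript had 211 and 153 reads in TSLPR WT Tregs of Mi2 mice, against 14 and 11 in Ctl Tregs. The p16 transcript had 154 and 108 reads in TSLPR WT, against 9 and 4 in Ctl. The excess of the Arf transcript, which equals the reads in its own first exon less those in the first exon of p16, was 57 and 45 reads in TSLPR WT, against 5 and 7 in Ctl. The excess was positive in all 5 Treg libraries, so the Arf first exon held more reads than the p16 first exon in each. The Arf transcript is listed with 924 bases and the p16 transcript with 845, and these reads were not corrected for length. The excess therefore does not show which product was more abundant.

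Cdkn2b lies next to Cdkn2a, with Cdkn2a (Arf transcript) at 88920377 to 88940523 and Cdkn2b at 88952198 to 88956941 on the minus strand of chromosome 4 of mm9, the build of the Treg table. It had 59.1 and 54.8 normalized reads in TSLPR WT Tregs of Mi2 mice, against 7.10 and 4.01 in Ctl Tregs, without overlap. The log2 change was 3.18 with a standard error of 0.54 (9.09-fold, 95% interval 2.03 to 4.33, adjusted p = 5.57e-04). In Ctl Tregs these values rest on 6 and 5 reads. Neither tested neighbour of the pair was called, and Mtap had 1360 and 1757 normalized reads in TSLPR WT and 1356 and 1081 in Ctl Tregs (log2 change 0.35, adjusted p = 0.262).

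Cdkn2c had 1581 and 1200 normalized reads in TSLPR WT Tregs of Mi2 mice, against 306 and 253 in Ctl Tregs. It had the smallest p of the 7 genes, with a log2 change of 2.30 and a standard error of 0.24 (4.94-fold, 95% interval 1.79 to 2.82, adjusted p = 1.46e-05), and 0.803% of all genes tested had a smaller one. Cdkn2d had 61.7 and 77.6 normalized reads in TSLPR WT, against 27.2 and 34.5 in Ctl Tregs. Its groups do not overlap either, but the log2 change of 1.15 missed the threshold (95% interval 0.25 to 2.05, adjusted p = 0.0561) and passed it at a pseudocount of 4 (adjusted p = 0.0485) and without a trend (adjusted p = 0.0256). The Cdkn2d transcript is listed at more than one place in the Treg table, so its counting is less certain.

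The sequences before the starts of the 3 INK4 genes that rose in Tregs are shown for comparison of their base composition, as these genes rose in Tregs. In the epidermis Cdkn2b and Cdkn2c were not called and Cdkn2a was not tested. They are from the RefSeq table on GRCm38.p6, 250 bases each, 5′ to 3′ on the minus strand, at chr4:89294620-89294869 (Cdkn2a start 1, upstream of the Arf first exon), chr4:89282193-89282442 (Cdkn2a start 2, upstream of the p16 first exon), chr4:89311033-89311282 (Cdkn2b) and chr4:109666757-109667006 (Cdkn2c start 1). Capitals mark the GC box GGGCGG, searched on both strands.
Cdkn2a start 1: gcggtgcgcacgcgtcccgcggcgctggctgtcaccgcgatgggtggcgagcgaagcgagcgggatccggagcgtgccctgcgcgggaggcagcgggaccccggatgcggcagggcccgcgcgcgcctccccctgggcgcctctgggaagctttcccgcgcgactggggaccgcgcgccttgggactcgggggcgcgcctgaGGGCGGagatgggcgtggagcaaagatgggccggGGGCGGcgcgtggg
Cdkn2a start 2: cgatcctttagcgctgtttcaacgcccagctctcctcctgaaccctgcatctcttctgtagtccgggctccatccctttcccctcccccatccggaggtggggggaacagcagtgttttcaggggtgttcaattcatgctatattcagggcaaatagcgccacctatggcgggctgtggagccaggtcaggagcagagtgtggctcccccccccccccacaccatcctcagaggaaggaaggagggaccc
Cdkn2b: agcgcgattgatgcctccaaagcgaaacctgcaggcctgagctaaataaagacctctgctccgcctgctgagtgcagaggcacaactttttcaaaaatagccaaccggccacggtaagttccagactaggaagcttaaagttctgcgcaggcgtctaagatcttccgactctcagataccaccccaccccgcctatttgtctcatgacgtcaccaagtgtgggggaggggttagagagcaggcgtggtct
Cdkn2c start 1: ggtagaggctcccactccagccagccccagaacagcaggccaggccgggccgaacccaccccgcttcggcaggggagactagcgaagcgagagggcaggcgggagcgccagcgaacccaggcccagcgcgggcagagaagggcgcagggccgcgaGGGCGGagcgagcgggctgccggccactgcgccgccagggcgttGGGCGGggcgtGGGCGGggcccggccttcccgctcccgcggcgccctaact
The Arf stretch has a GC content of 78.4% with 40 CpG dinucleotides, and that of Cdkn2c start 1 77.2% with 29, against medians of 52.4% and 6 over 32851 promoters. The p16 stretch has 60% and 7, and that of Cdkn2b 53.6% and 12. The stretch before Cdkn2c start 2, not printed, has 42.8% and 6. GC boxes were found 2 times before Arf and 3 times before Cdkn2c start 1, and none before p16, Cdkn2b or Cdkn2c start 2, while 32.7% of all promoters held one. Of the genes without a call in Tregs, Cdkn1b has 1 and Cdkn2d 3. Cdkn1a, which was called higher in Tregs, has 2, both before start 2. The E-box CACGTG, the STAT site TTCNNNGAA, the FOXO site GTAAACA and the E2F sites TTTCGCGC and TTTGGCGC were not in any of the 9 windows of the 6 genes, while 6.02%, 7.02%, 3.17% and 0.654% of all promoters held them. Absence says only that these letters are not in these windows. Cdkn1c had no entry.

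Among the CIP/KIP genes, Cdkn1a had 380 and 183 normalized reads in TSLPR WT Tregs of Mi2 mice, against 58.0 and 52.1 in Ctl Tregs. The TSLPR WT libraries differ from each other but both lie above Ctl, with a log2 change of 2.24 and a standard error of 0.37 (4.73-fold, 95% interval 1.45 to 3.04, adjusted p = 4.74e-04). Without TSLPR WT replicate 1, the higher one, the log2 change was 1.72. Cdkn1c had 123 and 146 normalized reads in TSLPR WT, against 55.6 and 55.3 in Ctl Tregs, without overlap. Its log2 change of 1.26 had a standard error of 0.36 (2.40-fold, 95% interval 0.50 to 2.03, adjusted p = 0.0167). This call ended without TSLPR WT replicate 2 (adjusted p = 0.0903), without Ctl replicate 1 (0.0602) and without Ctl replicate 2 (0.0626).

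Cdkn1b, the transcript with the highest mean per kilobase of the 7 in each Treg group, had 3199 and 1858 normalized reads in TSLPR WT Tregs of Mi2 mice and 4791 and 3129 in Ctl Tregs. The groups overlap, since TSLPR WT replicate 1 lies above Ctl replicate 2, and the log2 change of -0.67 was not called (95% interval -1.24 to -0.09, adjusted p = 0.0792). It was called lower without TSLPR WT replicate 1 (-1.06, adjusted p = 0.00479) and without Ctl replicate 2 (-0.97, adjusted p = 0.0203). The change was -0.28 without TSLPR WT replicate 2 (adjusted p = 0.618) and -0.36 without Ctl replicate 1 (adjusted p = 0.395), so its size depends on single libraries. Within libraries, the ratio of Cdkn2c to Cdkn1b reads was 0.494 and 0.646 in TSLPR WT, against 0.064 and 0.0807 in Ctl Tregs. The ratio of Cdkn1a to Cdkn1b reads was 0.119 and 0.0986 in TSLPR WT, against 0.0121 and 0.0167 in Ctl. Both ratios are without overlap. The exact two-sided permutation test gave the smallest p possible, 0.333, for each of them, which only restates the lack of overlap.

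**Figure D3:**
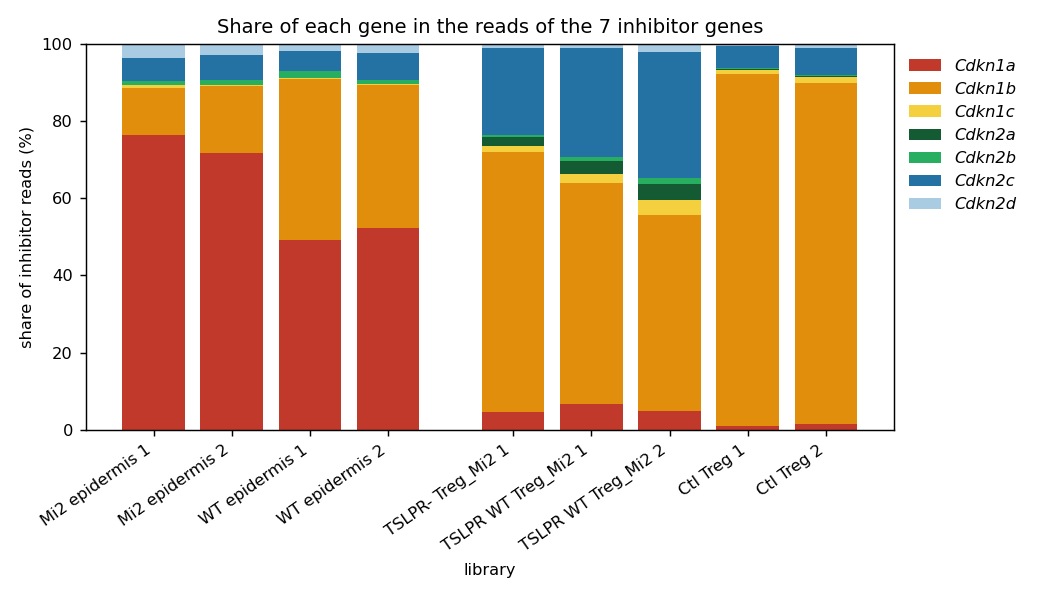
Share in percent of each of the 7 genes in the summed inhibitor reads of each of the 9 libraries, where the left bars are keratinocytes and the right bars are Tregs. Cdkn1a takes 71.8% or more in Mi2 and 52.4% or less in WT keratinocytes, and Cdkn1b takes 57.2% or less in TSLPR WT Mi2 Tregs and 88.5% or more in Ctl Tregs.

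Cdkn1b thus held 67.5% of inhibitor reads in TSLPR- Tregs, 57.2% and 50.6% in TSLPR WT Tregs of Mi2 mice, and 91.1% and 88.5% in Ctl Tregs. The share of Cdkn2c was 22.6% in TSLPR-, 28.3% and 32.7% in TSLPR WT, and 5.82% and 7.14% in Ctl Tregs. Per kilobase, Cdkn1b averaged 998 normalized reads in TSLPR- Tregs, 1053 in TSLPR WT and 1650 in Ctl, and Cdkn2c 395 in TSLPR-, 684 in TSLPR WT and 138 in Ctl. The ranges of the 2 genes touch in TSLPR WT, where Cdkn1b spans 774 to 1333 and Cdkn2c 590 to 778 per kilobase, and are far apart in Ctl. Within each TSLPR WT library Cdkn1b was above Cdkn2c, at 1333 against 778 in replicate 1 and 774 against 590 in replicate 2. In TSLPR WT Tregs Cdkn2a (183), Cdkn1a (148), Cdkn1c (69.7), Cdkn2d (55.0) and Cdkn2b (41.0) followed, with overlap between Cdkn2a and Cdkn1a only. Within libraries Cdkn2a was above Cdkn1a, at 201 against 200 in replicate 1 and 165 against 96.1 in replicate 2. In Ctl Tregs the order was Cdkn1a (28.9), Cdkn1c (28.7), Cdkn2d (24.4), Cdkn2a (13.7) and Cdkn2b (2.89 and 5.11 in its libraries), with overlap between Cdkn1a and Cdkn1c only. As the epidermal and Treg tables were counted and scaled separately, levels were not compared between them.

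Many genes of the cell cycle were also higher in TSLPR WT Tregs of Mi2 mice. Of 17 proliferation genes, 17 were called higher than in Ctl Tregs, with a median log2 change of 2.44, and their summed level was 105305 and 121500 normalized reads in TSLPR WT, against 30569 and 21820 in Ctl. Of 8 G1 cyclins and kinases, 5 were called higher and none lower, against 14.7% and 13% of all genes. Cdk6, a kinase that the INK4 proteins bind, had 1185 and 1175 normalized reads in TSLPR WT against 347 and 286 in Ctl Tregs (log2 change 1.90), and Cdk4 had 3644 and 4936 in TSLPR WT against 2367 and 2926 in Ctl (0.69). Ccne1 (2.04), Ccne2 (1.80) and Cdk2 (0.75) were also called higher, and Ccnd1 was not (-0.04). Of 10 S and M phase genes, 7 were called higher, of which Cdk1 (2.94), Ccnb2 (2.76), Cdc25c (3.07) and Cdc25b (2.09) had the smallest p. The part of proliferation in the inhibitor changes was not tested.

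Of 13 pocket protein and E2F genes, 6 were called higher and none lower, with E2f7 (2.99), E2f8 (2.80), E2f1 (2.37) and E2f2 (1.81) at the smallest p, while Rb1 was not called (0.08). Of 12 turnover genes, 5 were called higher and none lower, against 14.7% and 13% of all genes. Skp2, which marks p27 for degradation, had 385 and 319 normalized reads in TSLPR WT, against 185 and 121 in Ctl Tregs (log2 change 1.22, adjusted p = 0.00745), and Cks1b had 864 and 1021 in TSLPR WT, against 230 and 146 in Ctl (2.35). Dtl (2.77) and Pcna (1.32), which direct p21 to destruction in S phase, were called higher, as was Cks2 (1.55). Inhibitor proteins were not measured, and the part of these genes in the inhibitor changes was not tested.

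Of 26 genes around p53, 3 were called higher and 4 lower, with a median of 0.09. Among all genes tested 14.7% were called higher and 13% lower, so the list had no more calls than other genes. Pmaip1, the p53 target that encodes Noxa, had 1067 and 988 normalized reads in TSLPR WT, against 266 and 201 in Ctl Tregs (log2 change 2.14, adjusted p = 2.97e-05). Gadd45b (0.86) and Ei24 (0.69) were called higher, and Fas (-1.48), Sesn1 (-1.32), Btg2 (-1.22) and Mdm4 (-0.79) lower. Trp53 (-0.30) and Mdm2 (0.17) were not called. Of 15 tested repressors of the Ink4 locus, 3 were called higher, Id2 (1.26), Ezh2 (1.19) and Suz12 (0.75), and 2 lower, Id3 (-1.79) and Cbx7 (-1.03). Cbx7, a Polycomb protein known for repressing Cdkn2a, had 3366 and 1985 normalized reads in TSLPR WT, against 4851 and 5761 in Ctl Tregs. Bmi1 was not called (-0.37). Whether the p53 genes or these repressors had a part in the inhibitor changes was not tested.

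Of 23 tested activators, 1 was called higher and 8 lower, against 14.7% and 13% of all genes. Trp73, the p53 relative that can induce Cdkn1a and Cdkn1c, had 413 and 167 normalized reads in TSLPR WT, against 35.5 and 26.5 in Ctl Tregs (log2 change 3.06, adjusted p = 8.6e-05). The genes called lower were Kdm6b (-1.14), Kdm6a (-0.93), Foxo3 (-0.83), Foxo1 (-0.74), Tgfbr2 (-0.70), Dmtf1 (-0.68), Myc (-0.63) and Stat5b (-0.62). Whether Trp73 or the other activators had a part in the inhibitor changes was not tested. Around Cdkn1c, Cd81 was called higher (0.64) and Tspan32 lower (-0.78) of 8 tested, Kcnq1ot1, the RNA that silences the paternal domain, was at -0.02, and Phlda2 was not tested.

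**Figure D4:**
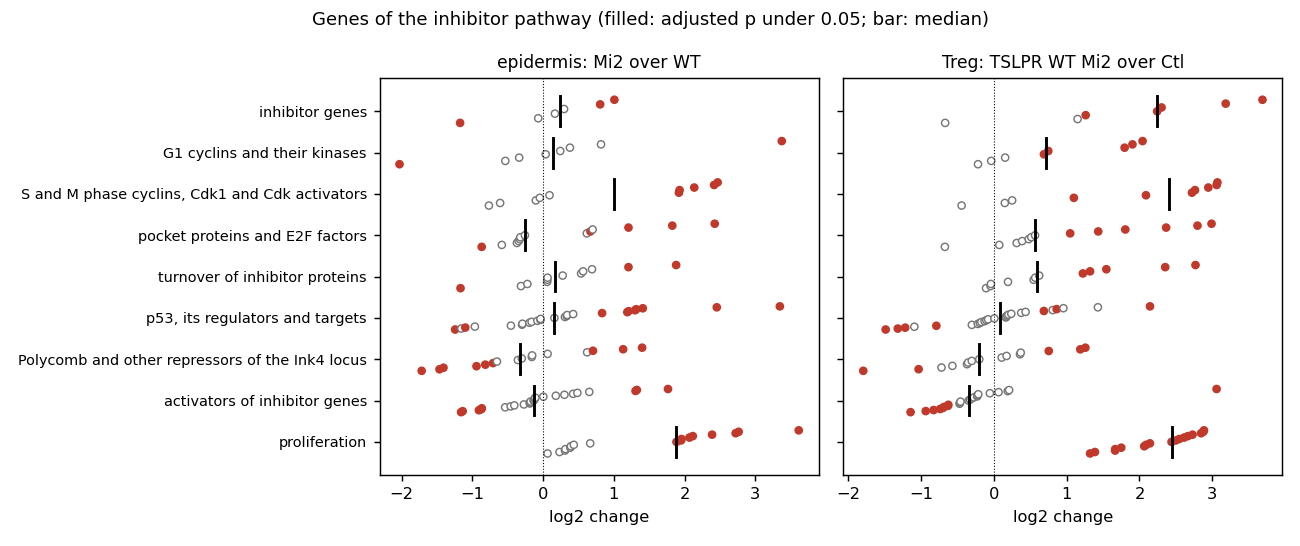
Fitted log2 change of each tested gene of the inhibitor family and of 8 lists of related genes, in epidermis (Mi2 over WT, left) and in Tregs (TSLPR WT Mi2 over Ctl, right), where filled points have an adjusted p under 0.05 and bars are list medians. The inhibitor median is 0.23 in the epidermis and 2.24 in Tregs, beside 1.89 and 2.44 for the proliferation list.

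Markers of other cells also differed between these Treg groups. Of 7 tested markers of other lymph node cells, 4 were called lower in TSLPR WT Tregs of Mi2 mice, against 13% of all genes. These 4 included the B cell genes Ms4a1 (-2.77) and Cd79a (-1.99) and the marker of cytotoxic T cells Cd8a (-1.75). The summed level of the 8 listed markers was 1162 normalized reads in TSLPR- Tregs, 610 and 885 in TSLPR WT Tregs, and 3615 and 2141 in Ctl Tregs, and none was at 0 in any library. Their part in the inhibitor differences was not tested. Foxp3, the defining gene of Tregs, had 13778 and 14517 normalized reads in TSLPR WT and 11159 and 15371 in Ctl Tregs (log2 change 0.11, adjusted p = 0.755).

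TSLPR- Tregs of Mi2 mice had lower fitted levels of all 7 inhibitor genes than TSLPR WT Tregs of Mi2 mice, but none was called. The receptor cannot be told apart here from other differences between the samples. The comparison asks only how TSLPR- and TSLPR WT Tregs of Mi2 mice differ. It rests on 1 TSLPR- library, which is assumed to vary like the other groups, and 0.942% of all 12206 genes were called, 0.737% higher and 0.205% lower. Of the 7 genes, 0 were called by limma, edgeR or DESeq2, and Cdkn1c, Cdkn2b and Cdkn2c had an unadjusted p under 0.05, at 0.0145, 0.0382 and 0.0192, with adjusted p-values of 0.252, 0.379 and 0.281. Negative changes made up 7 of 7 inhibitor genes and 47.4% of all genes tested. The count of 7 includes Cdkn1b, which was nearly unchanged at -0.03. The median log2 change was -0.95 over the 7 genes and 0.03 over all genes.

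Cdkn2b had 19.4 normalized reads in TSLPR- Tregs, against 59.1 and 54.8 in TSLPR WT Tregs, a log2 change of -1.50 (95% interval -2.91 to -0.09). Cdkn2a had 76.8 in TSLPR-, against 186 and 152 in TSLPR WT (-1.12, interval -2.25 to 0.00). For Cdkn2c the values were 803 in TSLPR- and 1581 and 1200 in TSLPR WT (-0.78, interval -1.41 to -0.15). In all 3 INK4 genes the TSLPR- library lies below both TSLPR WT libraries, as it does in 6 of the 7 genes, against 34.5% of all genes tested, while it lies above both in 0 of the 7, against 38.8%.

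Cdkn1c had 57.4 normalized reads in TSLPR- Tregs, against 123 and 146 in TSLPR WT Tregs (-1.21, interval -2.15 to -0.28), which puts it beside the Ctl values of 55.6 and 55.3. Cdkn2d had 35.5 in TSLPR-, against 61.7 and 77.6 in TSLPR WT (-0.95, interval -2.05 to 0.16). Cdkn1a had 160 in TSLPR-, against 380 and 183 in TSLPR WT (-0.72, interval -1.69 to 0.26), and the change was -0.19 without TSLPR WT replicate 1 and -1.24 without TSLPR WT replicate 2. Cdkn1b alone lay between the TSLPR WT libraries, with 2396 in TSLPR- and 3199 and 1858 in TSLPR WT (-0.03, interval -0.73 to 0.68). These intervals still include differences of more than 1 on the log2 scale for 6 of the genes.

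Against Ctl Tregs, which are also the controls of the comparison above, TSLPR- Tregs had 2 of 7 inhibitor genes called higher and none lower, with 3.15% of all genes called, 2.63% higher and 0.516% lower. The TSLPR- library lay above both Ctl libraries in 6 genes and below both in 1, against 40.9% and 31.3% of all genes tested, and 1 of 7 changes was below 0, against 45.5%. Cdkn2a had 76.8 normalized reads in TSLPR- and 16.6 and 8.82 in Ctl (log2 change 2.57, standard error 0.53, adjusted p = 0.0146). Cdkn2c had 803 in TSLPR- and 306 and 253 in Ctl (1.53, standard error 0.30, adjusted p = 0.0108). Both calls ended in limma without a trend, at adjusted p-values of 0.0814 and 0.105, and without a filter, at 0.355 and 0.351.

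The remaining genes were not called in that comparison. Cdkn2b had 19.4 normalized reads in TSLPR- and 7.10 and 4.01 in Ctl Tregs (1.68, interval 0.27 to 3.09). Cdkn1a had 160 in TSLPR- and 58.0 and 52.1 in Ctl (1.53, interval 0.56 to 2.50, adjusted p = 0.0957), and it was called when either TSLPR WT library was left out of the shared spread, with adjusted p-values of 0.0192 without replicate 1 and 0.0124 without replicate 2. Cdkn1b had 2396 in TSLPR- and 4791 and 3129 in Ctl (-0.69, interval -1.40 to 0.01). Cdkn2d (0.20, interval -0.90 to 1.31) and Cdkn1c (0.05, interval -0.89 to 0.98) had TSLPR- values of 35.5 and 57.4 just above their Ctl libraries.

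**Figure D5:**
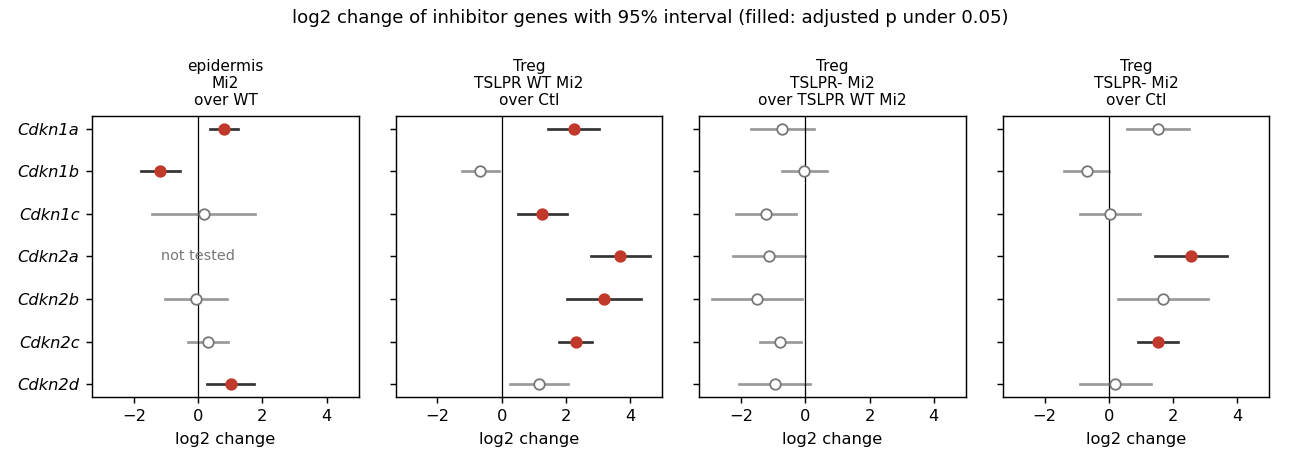
Fitted log2 change with its 95% interval for the 7 inhibitor genes in each of the 4 comparisons, where filled points have an adjusted p under 0.05. Calls were made for 3 genes in the epidermis, for 5 in TSLPR WT Mi2 over Ctl Tregs, for 0 in TSLPR- over TSLPR WT Tregs and for 2 in TSLPR- over Ctl Tregs, and the Treg comparisons share libraries.

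Between TSLPR- and TSLPR WT Tregs of Mi2 mice, the related genes were nearly all without a call. Of the lists of cyclins, kinases, E2F factors, turnover genes, repressors, activators and proliferation genes none had a called member, and of the 26 genes around p53 only Pmaip1 was called, lower, with 380 normalized reads in TSLPR- against 1067 and 988 in TSLPR WT (log2 change -1.43, adjusted p = 0.0423). The proliferation sum was 70981 in TSLPR- Tregs, against 105305 and 121500 in TSLPR WT, with a list median of -0.64. Cdk6 had 588 in TSLPR-, against 1185 and 1175 in TSLPR WT (adjusted p = 0.124). Against Ctl, 14 of the 17 proliferation genes were called higher in TSLPR- Tregs, as was Trp73, with 318 normalized reads in TSLPR- against 35.5 and 26.5 in Ctl (3.33, adjusted p = 0.0044). The part of proliferation in these inhibitor differences was not tested.

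The genes whose pattern over all 9 libraries was most like that of each inhibitor were taken by the Euclidean distance of log2(normalized reads + 1) values, centred for each gene on its own mean within each table, among 9560 genes tested in both tables. Cdkn1b lay closest to Mdfic, Rnf13 and A530054K11Rik, at distances of 0.24, 0.29 and 0.30. For Cdkn2d Klf10 (0.50) and Tubb5 (0.52) were among the nearest, and for Cdkn2c these were Cdc42bpb (0.48), Cdc45 (0.50) and Nsl1 (0.52). Cdkn1a was nearest to Msrb3 (0.62), Fam129b (0.67) and Mxd3 (0.74), Cdkn1c to Tuba1a (0.74), Glipr1 (0.78) and Zcchc3 (0.80), and Cdkn2b to Lgals3 (0.82), Itgb5 (0.84) and Erbb2 (0.88). Cdkn2a was not tested in both tables and has no such list. The libraries of a table share their scaling, and no test was made of these distances.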

How the data were processed

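Both tables hold a signal that the authors deposited as normalized read counts, and each library turned out to carry its own factor per read. Dividing by that factor gave whole reads for 100% of values within 0.05 reads in all 9 columns. Per the file headers the Treg table was made with HOMER on mm9 with no strand setting, and its command listed 7 libraries, of which 5 are in the table. The submitters' processing notes name bcl2fastq 1.8.3, STAR, DESeq2 and the builds mm9 and mm10, with no role for each. For the epidermis, no counter, aligner setting or strand is named in the sources, and the protocols name a NEXTflex and a stranded TruSeq kit without assigning them to libraries. The normalization of the 2 tables differed (size factors in one, equal totals in the other), so no level was compared across them.

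From these values, log2(normalized reads + 1) was tested with limma 3.58.1 (R 4.3.3, two-sided, trend) on features with a mean of at least 10, adjusted by Benjamini-Hochberg over all of them and called under 0.05. The 5 Treg libraries were in 1 fit. On the recovered reads, edgeR 4.0.16 called 4069 epidermal genes, and 3409 (TSLPR WT Mi2 over Ctl), 120 (TSLPR- over TSLPR WT) and 409 (TSLPR- over Ctl) in Tregs. DESeq2 1.42.0, other scalings, pseudocounts and filters, the omission of each replicated library and a replicate term were the alternatives. The test was also run on simulated counts with a fixed spread and 200 changed genes. Such counts cannot show how the test behaves on these libraries. Lengths for levels per kilobase came from the deposited Treg table and, for the epidermis, from GENCODE M21. Promoter sequences came from RefSeq (GRCm38.p6), where 6 of the 7 genes matched.

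The members, lists and motifs were chosen with earlier results of these data known. Named genes are the 7 members, up to 4 genes of each list with the smallest p, a set of regulators and the 3 nearest genes to each member. Further called genes of a list (among them E2f1, Sesn1, 9630033F20Rik, Cbx8, Stat5b and the genes around Cdkn1c) were named after their values were seen. A few genes that fall under this rule are not reported here. The number of libraries limits the precision of every value.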

Additional observations from a re-analysis of the deposited data

How the results depend on the processing

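Over the 27 tests of single inhibitor genes, 338 of 379 values under alternative settings kept their direction and side of the threshold, 28 lost a call, 9 gained one and 4 changed sign, none of them called. The sign changes were Cdkn2b in the epidermis (range -0.41 to 0.27 over omitted libraries, positive at 0.02 without Mi2 replicate 1 and 0.27 without WT replicate 1), Cdkn1b in TSLPR- over TSLPR WT Tregs (-0.42 to 0.37, positive without TSLPR WT replicate 1) and Cdkn1c in TSLPR- over Ctl Tregs (-0.0102 with DESeq2). In the epidermis 0 inhibitor genes were called without a trend and 1 with mitochondrial genes left out. With single libraries left out, 0 to 2 were called, and all genes called ranged from 1113 (without WT replicate 1) to 5815 (without Mi2 replicate 2). Without a filter 0 genes and 0 inhibitor genes were called by limma in each Treg comparison, while 5043, 1741 and 1942 genes had an unadjusted p under 0.05 in TSLPR WT over Ctl, TSLPR- over TSLPR WT and TSLPR- over Ctl. The cause was not tested. With every transcript kept separate, 5260, 230 and 598 were called in that order. In TSLPR- over TSLPR WT, 3 genes were called without a trend, 235 with DESeq2, 365 with only those 2 groups and 159 to 453 with single libraries left out. In TSLPR- over Ctl, 1 gene and 0 inhibitor genes were called without a trend, 664 genes with only those 2 groups and 372 to 687 with single libraries left out. With single libraries left out, 4 to 6 inhibitor genes were called in TSLPR WT over Ctl and 2 to 3 in TSLPR- over Ctl. A replicate block was tried although the numbers only name samples (correlation of same-numbered deviations 0.12 in epidermis and 0.09 in Tregs, from 2 pairs each). It called 5170 epidermal genes, with the same number of inhibitor genes, and 4361 in TSLPR WT over Ctl, with Cdkn1b (adjusted p = 0.00342) and Cdkn2d (0.0366) among them. Depth limited Cdkn2a and Cdkn1c in the epidermis and Cdkn2b in Ctl Tregs, which rest on 13 reads or fewer per library.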
